A study of Mus musculus with 13 samples.

Results

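The lipid-laden macrophage genes described here are 10 genes: Gpnmb, Trem2, Spp1, Fabp5, Cd9, Cd63, Lgals3, Cd36, Itgax and Clec7a. The list was drawn up with earlier results of these data known, and several members were picked because they rose strongly between the adrenals before and 8 weeks after deletion of Star, so their difference from before is given as a description and not as a test. All 10 were listed, out of 14715 genes with at least 1 listed transcript model, and all 10 were among the 14078 genes that could be compared across every library. Messenger RNA of adrenal glands from C57BL/6 mice was sequenced with a stranded protocol in 13 libraries. TAM was used in these mice to delete Star, which encodes the carrier that delivers cholesterol into mitochondria, where steroid synthesis begins. Before TAM there were 5 libraries, at 24 h after TAM 4, and at 8 weeks after TAM 4. The Cre driver, age and sex are not given in the sources used here, and no group analysed here had TAM while keeping Star, so the effects of time, of TAM and of the deletion cannot be told apart.

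Macrophages that take up lipid from dying or overloaded cells switch on a shared set of genes, known from atherosclerotic plaque, fatty liver, obese fat tissue and demyelinated brain. The receptor TREM2 binds lipids and lipoproteins at the cell surface and signals through the adaptor TYROBP and the kinase SYK. CD36 and the fatty acid binding protein FABP5 take in and carry fatty acids. CD63 and GPNMB lie in the membranes of lysosomes and related vesicles, and osteopontin (Spp1) and galectin-3 (Lgals3) are secreted. A store of cholesterol ester in cortical cells, in droplets, is a known feature of adrenals that lack STAR.

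Levels are given as FPKM (fragments scaled to transcript length and to the mapped reads of the library), summed over the transcript models of a gene, so they can be compared between genes per length. Log2 fold changes and their standard errors (SE) come from edgeR's quasi-likelihood test on estimated read counts in 1 fit of all libraries, and a gene is called where the Benjamini-Hochberg adjusted p over all 14078 genes is under 0.05. Labels do not say that each library is a separate animal, so the SD and every p measure the spread between these libraries. In whole glands, a change in the number of macrophages and a change in RNA per macrophage cannot be told apart. FPKM is also scaled to the reads of all cells, so a fall in the RNA of other cells raises it too.

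The libraries held 17331673 to 27309429 listed reads. Star lay between 3207 and 4239 FPKM before TAM, between 17.4 and 626 FPKM at 24 h and between 85.9 and 202 FPKM at 8 weeks. Summed markers of the adrenal cortex were 18202 to 23882 FPKM before, 4217 to 18360 FPKM at 24 h and 1476 to 3577 FPKM at 8 weeks. Summed fat cell markers were 47.8 to 1149 FPKM before, 14.2 to 2901 FPKM at 24 h and 4735 to 9131 FPKM at 8 weeks. Several libraries stood apart. Before replicate 1 had the 47.8 FPKM of fat markers, and 24 h replicate 3 had the lowest values of fat markers (14.2 FPKM), of medulla markers (18.8 FPKM) and of Star; these are the 2 libraries low in fat markers. In 24 h replicate 4, monocyte markers were at 191 FPKM, against 46.2 to 90.6 FPKM in the other 3 libraries of 24 h, endothelial markers at 761 FPKM, against 138 to 552 FPKM, and medulla markers at 116 FPKM, against at least 1173 FPKM before. In 8-week replicate 1, neutrophil markers were at 1847 FPKM, against 14.2 to 31.3 FPKM in the other 3 of 8 weeks, monocyte markers at 394 FPKM, against 87.8 to 130 FPKM, and lymphocyte markers at 76.1 FPKM, against 13.3 to 24.5 FPKM.

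The stretches upstream of 4 members are shown because these are the genes on which the levels, the likeness and the start sites below turn. They are the 250 bases before the first base of the RefSeq model, 5′ to 3′ on the strand of the gene, from the RefSeq table of GRCm38.p6, the build of the files. Capitals mark matches of the 6 motifs searched on both strands: the nuclear receptor half-site AGGTCA, the AP-1 site TGANTCA, the ETS site of PU.1 type GAGGAAGT, the TATA box TATAAA, the E-box CACGTG and the M-box core TCATGTG.
Gpnmb, chr6:49036268-49036517, plus strand: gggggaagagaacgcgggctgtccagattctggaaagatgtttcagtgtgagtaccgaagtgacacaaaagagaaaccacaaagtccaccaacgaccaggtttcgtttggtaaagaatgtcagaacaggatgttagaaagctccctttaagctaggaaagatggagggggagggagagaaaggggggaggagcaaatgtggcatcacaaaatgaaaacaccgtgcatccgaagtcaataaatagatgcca
Trem2, chr17:48346151-48346400, plus strand: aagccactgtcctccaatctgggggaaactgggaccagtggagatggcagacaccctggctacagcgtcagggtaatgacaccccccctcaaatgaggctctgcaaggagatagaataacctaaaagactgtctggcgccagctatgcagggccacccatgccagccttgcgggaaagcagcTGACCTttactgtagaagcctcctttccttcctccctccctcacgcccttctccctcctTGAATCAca
Spp1, chr5:104434861-104435110, plus strand: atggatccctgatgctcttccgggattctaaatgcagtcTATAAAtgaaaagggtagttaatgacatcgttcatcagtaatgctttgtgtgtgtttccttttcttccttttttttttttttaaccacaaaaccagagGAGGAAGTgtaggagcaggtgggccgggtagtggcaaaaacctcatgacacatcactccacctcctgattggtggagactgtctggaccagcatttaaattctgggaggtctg
Cd36 inner start, chr5:17835897-17836146, minus strand: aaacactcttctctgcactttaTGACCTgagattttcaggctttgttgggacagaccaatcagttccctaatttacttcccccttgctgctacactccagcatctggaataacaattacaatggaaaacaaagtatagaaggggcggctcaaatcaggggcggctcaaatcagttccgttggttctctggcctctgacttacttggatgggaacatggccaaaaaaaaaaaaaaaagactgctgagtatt
Trem2 and the inner start of Cd36 carry AGGTCA, read there as TGACCT, and Trem2 also has TGAATCA within 9 bases of its start. Spp1 has TATAAA and GAGGAAGT, and the Gpnmb stretch holds none of the 6. Across all 11 starts of the 9 members in the table (Fabp5 was not in it), AGGTCA was in those of Cd36 and Trem2, against 4607 of 32851 starts of all genes, and TGANTCA in those of Trem2 and Itgax, against 6.75%. GAGGAAGT was in 1 start of Spp1 (2.44% of all starts) and TATAAA in the same start (12.4%). CACGTG and TCATGTG, the letters known for factors of the MITF and TFEB family, were in none of the 11 windows and in 6.02% and 3.25% of all starts. For Cd36 only the inner start was in the table, and for Cd63 the window lies before 128909345 and not before 128909866, where the model with most of its FPKM begins. A match is a run of letters, not a shown binding site, and other distances were not searched.

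Each of the 10 genes was higher in every 8-week library than in any library from before TAM. The same held for 18.1% of all genes, and several members were picked for this rise. The members together made up 0.134% ± 0.0226 (SD, n = 5) of listed FPKM before, 0.530% ± 0.206 (SD, n = 4) at 24 h and 1.16% ± 0.123 (SD, n = 4) at 8 weeks. The lowest 24 h library (0.359%) was above the highest library from before (0.159%), and the lowest 8-week library (1.01%) was above the highest 24 h library (0.828%). The plot of levels by library shows this for each gene.

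**Figure D1:**
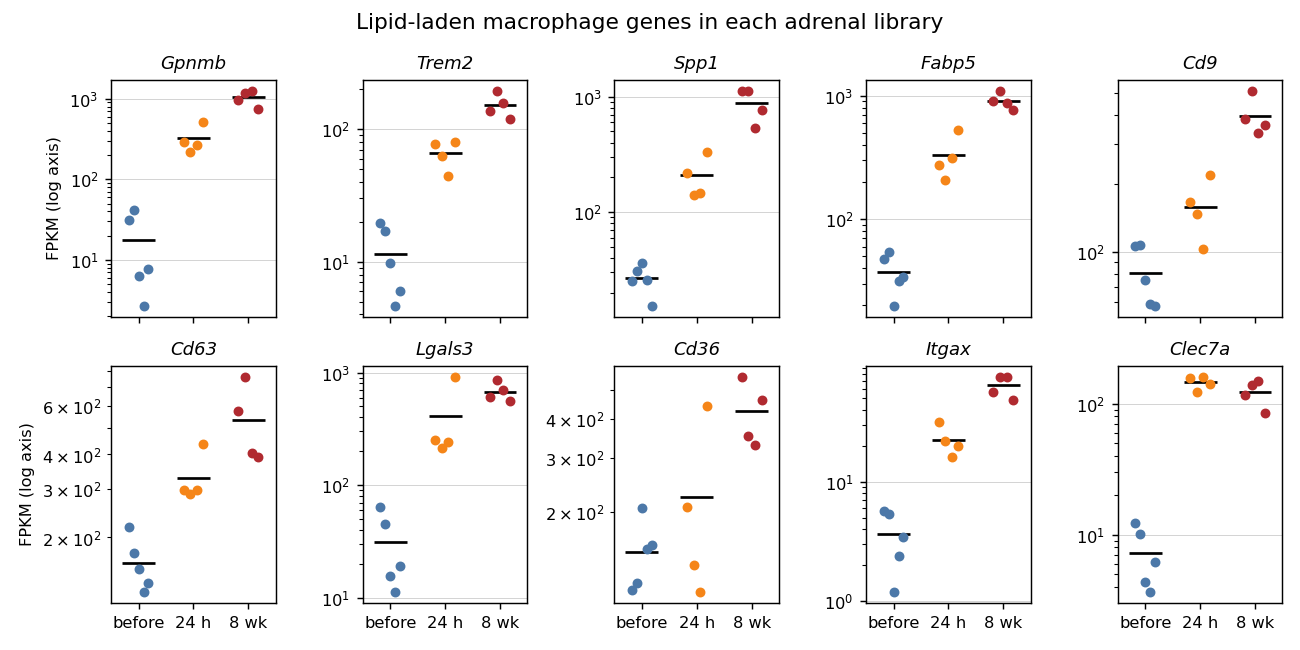
FPKM (log axis) of each of the 10 genes in 5 libraries before TAM, 4 at 24 h and 4 at 8 weeks; points are libraries and bars are group means. The 8-week points lie above all points from before TAM in every panel, while the 24 h points of Cd9 and Cd36 overlap those from before and the 24 h and 8-week points of Cd63, Lgals3, Cd36 and Clec7a overlap.

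Among surface receptors, Trem2 (chr 17, 48346401 to 48352276, plus strand) was at 19.4, 17.1, 9.76, 4.63 and 6.03 FPKM before TAM, at 76.7, 62.7, 44.3 and 79.4 FPKM at 24 h and at 138, 196, 158 and 119 FPKM at 8 weeks. The 3 groups did not overlap. The log2 fold change from before was 2.57 (SE 0.39) at 24 h and 3.88 (SE 0.40) at 8 weeks.

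Clec7a (chr 6, 129461591 to 129472777, minus strand) encodes dectin-1, a receptor for beta-glucans of fungal cell walls that is also a marker of activated microglia. It was at 12.3, 10.1, 4.37, 3.65 and 6.23 FPKM before, at 157, 122, 161 and 140.2 FPKM at 24 h and at 117, 139.5, 148 and 84.7 FPKM at 8 weeks. Its whole difference from before was present at 24 h: the log2 fold change was 4.33 (SE 0.35) at 24 h and 4.21 (SE 0.35) at 8 weeks. The 24 h and 8-week libraries overlapped.

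Itgax (chr 7, 128129568 to 128150657, plus strand) encodes CD11c, the alpha chain of an integrin of dendritic cells and some macrophages. It was the lowest of the 10 in every group, at 5.66, 5.40, 1.19, 2.41 and 3.44 FPKM before, at 31.8, 22.0, 16.1 and 19.8 FPKM at 24 h and at 56.3, 75.7, 75.9 and 48.0 FPKM at 8 weeks. The 3 groups did not overlap, with log2 fold changes from before of 2.67 (SE 0.39) and 4.29 (SE 0.41).

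Gpnmb (chr 6, 49036518 to 49058182, plus strand), a transmembrane glycoprotein of lysosomes and melanosomes, had the largest difference of the 10. It was at 31.4, 41.2, 6.29, 2.67 and 7.78 FPKM before, at 289, 219, 270.0 and 511 FPKM at 24 h and at 954, 1184, 1265 and 748 FPKM at 8 weeks. Its mean went from seventh of the 10 before TAM to the highest at 8 weeks, 58.1 times the mean before. The log2 fold change was 4.23 (SE 0.70) at 24 h and 6.01 (SE 0.76) at 8 weeks. These wide errors go with the libraries before TAM, in which Gpnmb spanned 15.4-fold, against 2.33-fold at 24 h and 1.69-fold at 8 weeks.

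The tetraspanins Cd63 and Cd9, membrane proteins of endosomes, vesicles and the cell surface, were already among the 3 highest of the 10 before TAM and had smaller differences. Cd63 (chr 10, 128908919 to 128912818, plus strand) was at 218, 176, 153, 127 and 137 FPKM before, at 296, 287, 298 and 436 FPKM at 24 h and at 573, 767, 406 and 393 FPKM at 8 weeks. Cd9 (chr 6, 125460266 to 125494755, minus strand) was at 106, 107, 75.5, 58.9 and 57.8 FPKM before, at 166, 147, 103 and 217 FPKM at 24 h and at 383, 514, 334 and 364 FPKM at 8 weeks. Both genes are used by many cell types. At 24 h the log2 fold change was 1.06 (SE 0.23) for Cd63 and 1.01 (SE 0.26) for Cd9, and at 8 weeks it was 1.84 (SE 0.23) and 2.42 (SE 0.27).

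Of the secreted members, Spp1 (chr 5, 104435111 to 104441053, plus strand) encodes osteopontin, an integrin and CD44 ligand. It was at 25.2, 30.9, 35.8, 25.8 and 15.3 FPKM before, at 216, 139.9, 145 and 330.1 FPKM at 24 h and at 1121, 1131, 537 and 768 FPKM at 8 weeks. The 3 groups did not overlap, and the log2 fold change was 3.02 (SE 0.34) at 24 h and 5.18 (SE 0.37) at 8 weeks.

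Lgals3 (chr 14, 47373860 to 47386167, plus strand) encodes galectin-3, a sugar-binding protein. It was at 64.4, 45.1, 15.6, 11.3 and 19.3 FPKM before, at 254, 214, 244 and 920.1 FPKM at 24 h and at 602, 857, 695 and 556 FPKM at 8 weeks. The 24 h replicate 4 library was above every 8-week library, while the other 3 were below all of them. The log2 fold change from before was 3.78 (SE 0.60) at 24 h and 4.58 (SE 0.62) at 8 weeks, and the 24 h value was 2.93 without 24 h replicate 4.

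Of the fatty acid carriers, Fabp5 (chr 3, 10012585 to 10016610, plus strand) was at 47.3, 54.0, 19.7, 31.3 and 33.8 FPKM before, at 277, 207, 316 and 525 FPKM at 24 h and at 905, 1105, 878 and 767 FPKM at 8 weeks. The groups did not overlap, and the log2 fold change was 3.20 (SE 0.32) at 24 h and 4.75 (SE 0.35) at 8 weeks. Cd36 (chr 5, 17781690 to 17888959, minus strand), a scavenger receptor for oxidised lipoprotein and long-chain fatty acids that fat cells and capillaries also use, was at 112, 118, 206, 152 and 156 FPKM before, at 209, 135, 110.2 and 441 FPKM at 24 h and at 551, 355, 331 and 464 FPKM at 8 weeks. The 24 h libraries ran from below every library before TAM to within the 8-week range. The log2 fold change of Cd36 was 0.66 (SE 0.38) at 24 h and 1.65 (SE 0.39) at 8 weeks, the smallest of the 10 at both times, and without 24 h replicate 4 it was 0.04 at 24 h.

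In the fit, 10 of 10 members were called higher at 8 weeks than before, where 20.5% of all genes were, and 9 of 10 at 24 h, all but Cd36, where 12.6% of all genes were. Libraries did not overlap for 10 members at 8 weeks (18.1% of all genes) and for 8 at 24 h, all but Cd9 and Cd36 (9.75% of all genes). Since several members were picked for the 8-week rise and both comparisons share the libraries before TAM, these counts only describe the list. The median log2 fold change of the members was 4.25 at 8 weeks and 2.84 at 24 h, and that of all genes was 0.03 in both. Without the 2 libraries low in fat markers, a setting chosen after seeing the data, 10 and 9 members were called. Without 24 h replicate 4, 8 members were called at 24 h, since Cd9 was then not called.

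**Figure D2:**
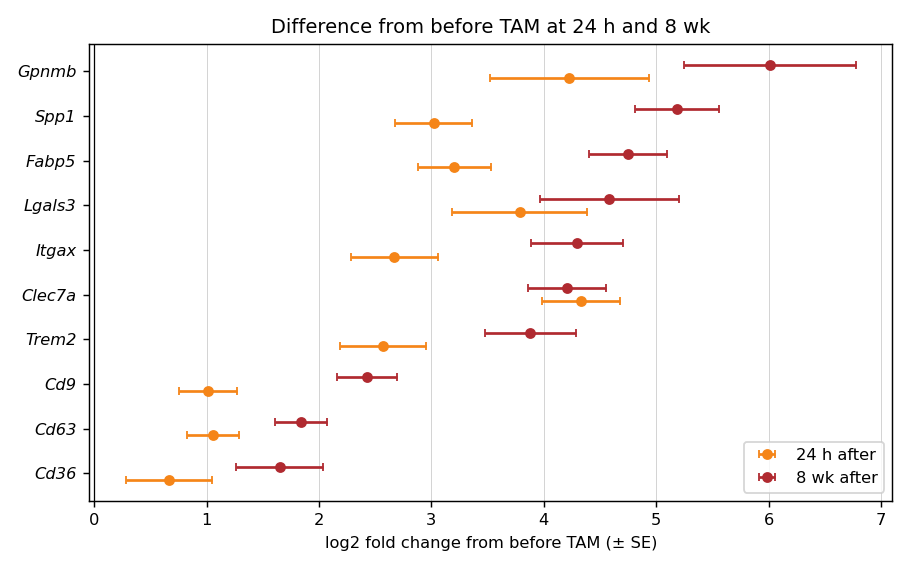
Log2 fold change from before TAM (± SE, edgeR) of each of the 10 genes at 24 h and at 8 weeks, ordered by the 8-week value; the 2 comparisons share the 5 libraries before TAM. Values at 8 weeks run from 1.65 for Cd36 to 6.01 for Gpnmb, and Clec7a is the gene whose 24 h value is not below its 8-week value.

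The members differed in how much of the 8-week difference was present after 24 h. On the log2 scale the 24 h value was 103% of the 8-week value for Clec7a, 82.6% for Lgals3 and 70.3% for Gpnmb. It was 67.4% for Fabp5, 66.2% for Trem2, 62.1% for Itgax, 58.3% for Spp1 and 57.4% for Cd63. It was lowest for Cd9 (41.7%) and Cd36 (40.3%). In FPKM, the linear rise at 24 h was 120% of that at 8 weeks for Clec7a and between 21.0% (Spp1) and 58.3% (Lgals3) for the other 9. The place of Lgals3 rested on 24 h replicate 4: without it the log2 share was 64.3% for Lgals3 and 64.5% for Gpnmb, and the share of the linear rise was 31.9% for Lgals3. The value of Cd36 rested on the same library, with 2.5% of the log2 difference and 0.9% of the linear rise without it, while Clec7a was at 103.2% and 121.1%.

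The 8-week and 24 h libraries were then compared directly. Members were not picked on this contrast, but it shares the 8-week libraries with the one they were picked on. Picking genes that were high in those libraries favours a rise here too. The counts and adjusted p of this contrast thus describe the members and are not an independent test of the list. In edgeR's quasi-likelihood test, 6 of 10 members rose between 24 h and 8 weeks, where 10.1% of all genes did. Spp1 rose by 2.16 on the log2 scale (SE 0.36, adjusted p = 0.0037), Itgax by 1.63 (SE 0.40, adjusted p = 0.017), Fabp5 by 1.55 (SE 0.33, adjusted p = 0.010) and Cd9 by 1.41 (SE 0.28, adjusted p = 0.0073). These 4 kept the call under every alternative run. In the same test Trem2 rose by 1.31 (SE 0.40, adjusted p = 0.036) and Cd63 by 0.78 (SE 0.24, adjusted p = 0.039), and both lost the call in several alternatives. Adjusted p for Trem2 was 0.074 without 24 h replicate 2, 0.064 without 24 h replicate 3, and 0.061, 0.082 and 0.070 without 8-week replicates 1, 2 and 3. For Cd63 it was between 0.056 and 0.11 without any of before replicates 2, 4 and 5, 24 h replicates 1, 2 and 3, and 8-week replicates 1 and 2.

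The other 4 members did not pass. Gpnmb was 1.79 higher on the log2 scale at 8 weeks (SE 0.70, edgeR adjusted p = 0.083), with every 8-week library above every 24 h library. It was called by DESeq2 (1.78, adjusted p = 0.019). It was also called in a fit without the libraries before TAM (1.74, SE 0.39, edgeR adjusted p = 0.040), in which its spread was wide. Under the other alternatives Gpnmb was not called. Cd36 was 0.99 higher (SE 0.41, edgeR adjusted p = 0.10) and Lgals3 0.80 higher (SE 0.59, edgeR adjusted p = 0.35). Both rested on 24 h replicate 4, without which the values were 1.57 (edgeR adjusted p = 0.012) and 1.63 (edgeR adjusted p = 0.049). Clec7a had a log2 difference of -0.12 (SE 0.33, edgeR adjusted p = 0.82). The 8-week and 24 h libraries did not overlap for 6 members (Gpnmb, Trem2, Spp1, Fabp5, Cd9 and Itgax), against 9.92% of all genes. The members' median log2 fold change was 1.36, that of all genes -0.03, and 5 members were called without the 2 libraries low in fat markers.

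Order among the members also differed between groups. Before TAM the means ran from Cd63 (162 ± 36.5 FPKM, SD, n = 5) over Cd36 (149 ± 37.6) and Cd9 (81.1 ± 24.3) to Fabp5 (37.2 ± 13.6), Lgals3 (31.1 ± 22.8), Spp1 (26.6 ± 7.65), Gpnmb (17.9 ± 17.3), Trem2 (11.4 ± 6.60), Clec7a (7.32 ± 3.73) and Itgax (3.62 ± 1.92). Only between Cd36 and Cd9 and between Cd9 and Fabp5 did neighbouring ranges separate. At 24 h Lgals3 (408 ± 342 FPKM, SD, n = 4) and Fabp5 (331 ± 137) had the highest means and Trem2 (65.8 ± 16.1) and Itgax (22.4 ± 6.68) the lowest, and ranges separated between Clec7a and Trem2 and between Trem2 and Itgax. Without 24 h replicate 4, the mean of Lgals3 was 237 ± 20.5 FPKM (SD, n = 3), below Cd63 (294 ± 6.38), Fabp5 (267 ± 55.2) and Gpnmb (259 ± 36.3). At 8 weeks Gpnmb (1038 ± 234 FPKM, SD, n = 4), Fabp5 (914 ± 141), Spp1 (889 ± 289) and Lgals3 (677 ± 133) led. Cd63 (535 ± 175), Cd36 (425 ± 102), Cd9 (399 ± 79.3), Trem2 (153 ± 32.8), Clec7a (122 ± 28.1) and Itgax (64.0 ± 14.1) followed, with ranges apart only between Cd9 and Trem2 and between Clec7a and Itgax. The tetraspanins and Cd36, which led before TAM, were thus below the other 4 abundant members by mean at 8 weeks.

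Among the 5 members with several shared transcript models, Cd36 had the largest differences in their proportions. Its 5 RefSeq models begin at 3 start sites on the minus strand of chromosome 5. The inner start at 17835896 has 2 models, the middle start at 17849792 lies 13896 bases upstream and has 2 models, and the outer start at 17888959 has 1. The models share most of their exons, and reads that fit several were divided by the estimate behind the deposited counts. The inner start held 11.8, 26.5, 26.1, 23.9 and 31.0 FPKM before, 106, 59.7, 90.8 and 226 FPKM at 24 h and 207, 157, 187 and 159 FPKM at 8 weeks. The middle start held 100.4, 91.4, 179, 127 and 125 FPKM before, 102, 73.9, 17.5 and 212 FPKM at 24 h and 339, 195, 141 and 300.1 FPKM at 8 weeks. Thus the inner start was higher in all 8 later libraries than in any library before, while the middle start overlapped between before and both later groups. The outer start stayed under 5 FPKM in every library. It was at 0.231 to 1.06 FPKM before, 0.944 to 3.19 FPKM at 24 h and 2.63 to 4.88 FPKM at 8 weeks. Like the inner start, it was thus higher in every 8-week library than in any library before.

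As a share of Cd36 FPKM, the inner start made up 10.5, 22.4, 12.6, 15.7 and 19.9% before, 50.7, 44.1, 82.3 and 51.3% at 24 h and 37.6, 44.1, 56.6 and 34.3% at 8 weeks. The means were 16.2% ± 4.94 (SD, n = 5), 57.1% ± 17.1 (SD, n = 4) and 43.1% ± 9.87 (SD, n = 4). This grouping by start was chosen after the model values were seen, so it has no test. Without the 2 libraries low in fat markers, the share was 31.0 percentage points above before at 24 h and 25.5 points above at 8 weeks, against 40.9 and 26.9 points with them. In the authors' deposited table of 8 weeks against before, the log2 ratios of the inner models were 3.78 and 2.91 and those of the middle models 0.99 and 0.81. The log2 ratio of the outer model was 2.96.

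The share of each gene's most abundant model was tested for the 5 members with several shared models, over 15 comparisons by a two-sided exact permutation test. No share passed after Benjamini-Hochberg adjustment, and 5 had an unadjusted p under 0.05. For Cd36 the share of a middle-start model was 49.1% ± 4.14 before, 24.8% ± 9.62 at 24 h and 34.5% ± 5.86 at 8 weeks. The exact permutation p was 0.016 for both times against before, the smallest that 4 libraries against 5 allow, with an adjusted p of 0.079. For Trem2 the leading model went from 86.8% ± 1.92 before to 83.2% ± 1.04 at 8 weeks (exact permutation p = 0.016, adjusted p = 0.079). Lgals3 divided its FPKM near evenly between 2 models in all groups (50.9% ± 3.44, 52.0% ± 4.57 and 49.9% ± 5.36 in the leading one).

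**Figure D3:**
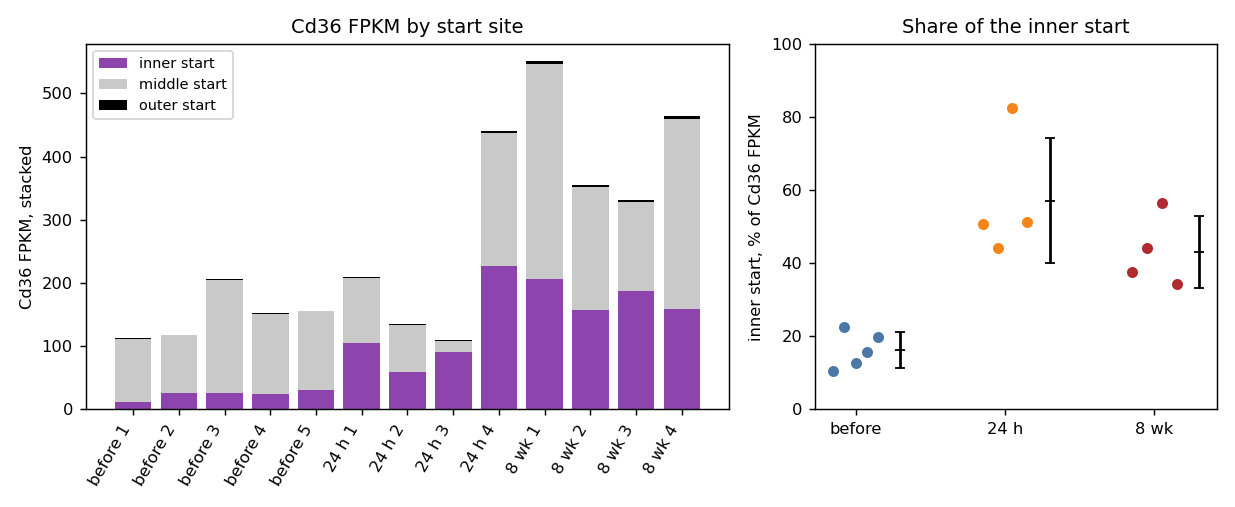
Left, Cd36 FPKM in each of the 13 libraries, stacked by start site; right, the inner start's share of Cd36 FPKM (%), points for libraries and bars for mean ± SD. The share is 10.5 to 22.4% before TAM, 44.1 to 82.3% at 24 h and 34.3 to 56.6% at 8 weeks.

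Within groups, several members were high or low in the same libraries. Deviations of each library from its group mean, in log2(FPKM + 0.1), were correlated between members as a description over 13 libraries that share depth and makeup of the gland. Pearson r was highest for Gpnmb with Clec7a (0.90), Gpnmb with Trem2 (0.88), Gpnmb with Lgals3 (0.88) and Trem2 with Cd9 (0.88), and it was above 0.5 in 28 of 45 pairs. No share over all pairs of genes stands beside this count, so it cannot be read as particular to the members. Before replicates 1 and 2 were the highest of the 5 before TAM in Gpnmb, Trem2, Fabp5, Cd9, Cd63, Lgals3, Itgax and Clec7a and the lowest in Cd36. In Spp1, before replicate 3 was the highest. Over the 8 later libraries alone, Gpnmb with Lgals3 (0.90) and Trem2 with Cd9 (0.87) were as close, while Gpnmb with Trem2 was at 0.63, Gpnmb with Clec7a at 0.55, Trem2 with Clec7a at 0.37 and Lgals3 with Clec7a at 0.17.

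Cd36 had the lowest values of r. Its deviations had an r of -0.39 with Clec7a, -0.35 with Itgax and -0.11 with Gpnmb, and 0.64 with Spp1, its closest member. Over the 8 later libraries alone, r was 0.81 with Spp1, 0.75 with Lgals3 and 0.56 with Gpnmb, and -0.24 with Clec7a and -0.02 with Itgax, so the value below 0 with Gpnmb rests on the libraries before TAM. Marker lists were compared with members by the mean of their genes' log2 deviations, and not by their summed FPKM. With endothelial markers Cd36 had an r of 0.63, against -0.15 to 0.59 for the other 9. With fat cell markers it was 0.55, against -0.50 to 0.25. By start site, the r with fat cell markers was 0.73 for the middle start and 0.41 for the inner start. With markers of general and resident macrophages it was 0.25 for the middle start and 0.16 for the inner start. The part of fat or vessels in the level of Cd36 was not tested.

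**Figure D4:**
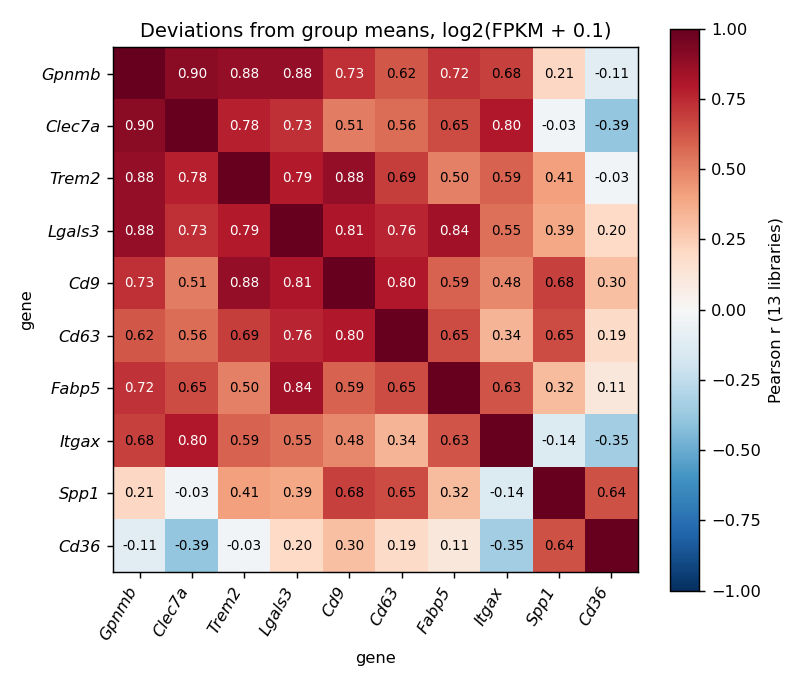
Pearson r between members' deviations from their group means, log2(FPKM + 0.1), over 13 libraries. Gpnmb, Clec7a, Trem2 and Lgals3 have values of 0.73 to 0.90 with each other, which over the 8 later libraries alone range from 0.17 to 0.90, and Cd36 is below 0 with 4 members.

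Among 9260 genes with a mean of at least 5 FPKM, those whose deviations were most like Gpnmb's were Mmp12 (r = 0.956), Atp6v0d2 (r = 0.931) and Ctss (r = 0.913). Mmp12, the macrophage elastase, had means of 13.8 ± 10.1 FPKM before, 161 ± 77.4 FPKM at 24 h and 467 ± 119 FPKM at 8 weeks. Atp6v0d2, a subunit of the proton pump, had means of 3.49 ± 3.42, 65.6 ± 19.2 and 189 ± 41.1 FPKM. Most like Trem2 were Ccl3 (r = 0.966), AF251705 (r = 0.964) and Cyth4 (r = 0.929). Ccl3, a chemokine, went from 1.67 ± 1.70 FPKM over 10.8 ± 3.91 FPKM to 16.3 ± 4.53 FPKM. The limit of 5 FPKM was set on the mean over all 13 libraries. Atp6v0d2 and Ccl3 were below it before TAM and passed through the later groups, where they were higher. These r are the largest among 9260 genes, so they and the group means are only a description.

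Partners of the members were taken from lists chosen with earlier results of these data known, and their counts stand against 20.5% of all genes higher and 16.4% lower at 8 weeks, 12.6% and 6.63% at 24 h, and 10.1% and 10.6% between 24 h and 8 weeks. Most genes named from a list are those called with the lowest p at 8 weeks against before. Their fold changes and p in that comparison are thus a description and not a test of the list. Of 9 genes of TREM2 signalling, 8 rose at 8 weeks against before, 9 at 24 h against before and 2 between 24 h and 8 weeks (the adaptors Tyrobp and Hcst). Tyrobp, the adaptor that carries the TREM2 signal, was at 43.8 ± 17.7 FPKM before, 222 ± 73.5 FPKM at 24 h and 498 ± 114 FPKM at 8 weeks, and rose by 3.64 on the log2 scale by 8 weeks (SE 0.33, edgeR adjusted p = 1.1e-05). Ptpn6, a phosphatase that restrains such receptors, rose by 2.32 (SE 0.23, edgeR adjusted p = 1.6e-05). Without the 2 libraries low in fat markers, 7 of the 9 rose at 8 weeks.

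Of 8 genes downstream of dectin-1, 5 rose at 8 weeks and 4 at 24 h against before, and 1 fell between 24 h and 8 weeks (Prkcd, a protein kinase C). Syk, the kinase that dectin-1 and TREM2 share, was at 2.76 ± 1.04 FPKM before, 15.5 ± 6.35 FPKM at 24 h and 17.9 ± 3.91 FPKM at 8 weeks. Card9, which links dectin-1 to NF-kB, rose by 2.33 on the log2 scale by 8 weeks (SE 0.39, edgeR adjusted p = 6.1e-04). Neither Syk nor Card9 was called between 24 h and 8 weeks, as with Clec7a itself.

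Of 6 tested partners of CD11c, 5 rose and 1 fell at 8 weeks against before, and 3 rose at 24 h (Itgb2, Icam1 and Fermt3). The 1 that fell was Tln1, the talin that links integrins to the cytoskeleton, by 0.92 on the log2 scale (SE 0.23). Itgb2, the beta chain that pairs with Itgax, was at 11.0 ± 4.92 FPKM before, 52.0 ± 18.6 FPKM at 24 h and 113 ± 29.7 FPKM at 8 weeks. It rose by 3.51 on the log2 scale by 8 weeks (SE 0.37, edgeR adjusted p = 2.7e-05), and Fermt3, which activates such integrins in blood cells, rose by 2.23 (SE 0.33, edgeR adjusted p = 2.4e-04).

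Receptors of osteopontin moved in both directions. Of 7, Itga4 rose and Itga9 and Itgb5 fell at 8 weeks against before. At 24 h, Cd44, Itgav, Itgb1 and Itga4 rose, 4 in all, and Itgav, Itgb1 and Itga9 fell between 24 h and 8 weeks, 3 in all, or 5 without the 2 libraries low in fat markers. Itga4, an integrin chain of leukocytes, rose by 2.40 on the log2 scale by 8 weeks (SE 0.26, edgeR adjusted p = 3.2e-05) from a mean of 0.862 FPKM to 4.13 FPKM. Itga9 fell by 2.19 (SE 0.22, edgeR adjusted p = 1.7e-05), from 30.7 ± 5.20 FPKM before and 26.8 ± 10.6 FPKM at 24 h to 6.25 ± 0.979 FPKM.

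Of 8 other tetraspanins, 4 rose at 8 weeks and 2 at 24 h (without the 2 libraries low in fat markers, 4 rose and 2 fell at 8 weeks), led by the leukocyte tetraspanins Cd53 (log2 fold change 3.66, SE 0.35, edgeR adjusted p = 1.5e-05) and Cd37 (2.99, SE 0.35, edgeR adjusted p = 4.9e-05). Of 5 other galectins, 3 rose at 8 weeks and 2 at 24 h (4 at each time without the 2 libraries low in fat markers), with Lgals9 at 1.42 (SE 0.27) and Lgals1 at 1.08 (SE 0.24) by 8 weeks. Of 8 MiT/TFE factors and lysosome membrane genes, 4 rose at both times, Mitf, Tfec, Lamp1 and Lamp2. Mitf, a regulator of lysosome genes and Gpnmb in other cells, was at 3.12 ± 0.523 FPKM before, 7.01 ± 0.605 FPKM at 24 h and 7.01 ± 0.946 FPKM at 8 weeks, and its relative Tfec rose by 2.63 on the log2 scale by 8 weeks (SE 0.42, edgeR adjusted p = 4.1e-04).

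Of 17 other genes known from lipid-laden macrophages, 16 rose at 8 weeks, 13 at 24 h and 5 between 24 h and 8 weeks (Lpl, Ctsl, Ctss, Mmp12 and Npc2). Lipa, the lysosomal acid lipase, was not called in any of these, with 143 ± 33.8 FPKM before, 137 ± 30.7 FPKM at 24 h and 178 ± 33.7 FPKM at 8 weeks. The lysosomal proteases Ctsl and Ctss rose by 2.71 (SE 0.19, edgeR adjusted p = 4.7e-06) and 4.13 (SE 0.35, edgeR adjusted p = 7.8e-06) on the log2 scale by 8 weeks. Of 8 listed genes of osteoclasts, the bone macrophages that share several members, Calcr, Ocstamp, Dcstamp and Oscar were not among the genes tested, and of the 4 tested, 4 rose at 8 weeks and 3 at 24 h, with Ctsk at 3.87 (SE 0.29) and Acp5 at 2.96 (SE 0.34).

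Of 9 genes of fatty acid handling, none rose and 1 fell at 24 h in edgeR's test, where 3 had an unadjusted p under 0.05 and DESeq2 called 2, and 6 rose and 2 fell at 8 weeks. Dgat1, which makes triglyceride, was at 22.3 ± 6.98 FPKM before, 24.1 ± 10.8 FPKM at 24 h and 97.0 ± 22.3 FPKM at 8 weeks. Acsl4, an acyl-CoA synthetase that prefers arachidonate, fell by 2.59 on the log2 scale by 8 weeks (SE 0.35, edgeR adjusted p = 1.5e-04). Summed fat cell markers were also higher in every 8-week library than in any earlier library (ranges above), with 4 of 9 called higher at 8 weeks and 0 at 24 h. Whether they varied with the genes of this list between libraries was not measured. The part of fat cells in the levels of these genes was not tested.

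The label of the list was set against macrophage markers. Of 11 tested genes of general and resident macrophages, 6 rose at 8 weeks against before and 4 at 24 h. None was called between 24 h and 8 weeks by edgeR, where 2 had an unadjusted p under 0.05 and DESeq2 called 1. Adgre1, the F4/80 antigen, listed under its older symbol Emr1, was at 7.01 ± 1.40 FPKM before, 26.9 ± 8.04 FPKM at 24 h and 26.4 ± 7.22 FPKM at 8 weeks. Mertk, an uptake receptor for dying cells, was at 8.77 ± 1.24, 21.8 ± 2.39 and 23.3 ± 7.07 FPKM. The summed list was 45.7 to 99.0 FPKM before, 111 to 177 FPKM at 24 h and 114 to 219 FPKM at 8 weeks. Within groups, a member's deviations were correlated over 13 libraries with the mean of the log2 deviations of the genes in this list. The r was -0.52 (Fabp5) to 0.16 (Cd36), and below 0 for 7 of 10. With the mean over monocyte markers it was 0.39 to 0.70 for 9 of 10 and 0.11 for Itgax. Whether the members' later rise differs from that of these markers was not tested.

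Markers of other cells were summed in the same way. Monocyte markers (5 of 6 rose at 8 weeks and 2 at 24 h, or 6 and 4 without the 2 libraries low in fat markers) were 9.03 to 39.6 FPKM before, 46.2 to 191 FPKM at 24 h and 87.8 to 394 FPKM at 8 weeks. Dendritic cell markers, which bear on Itgax, were 3.52 to 6.28, 5.36 to 7.07 and 6.82 to 12.3 FPKM, with 4 of 5 called higher at 8 weeks and 0 at 24 h by edgeR, where 1 had an unadjusted p under 0.05 and DESeq2 called 0. Neutrophil markers were 1.61 to 61.7 FPKM before and 9.42 to 41.3 FPKM at 24 h, and at 8 weeks they were at 1847 FPKM in replicate 1 and within the range before TAM in the other 3 libraries. Without 8-week replicate 1, 10 members were called at 8 weeks against before and 4 between 24 h and 8 weeks. The latter count was also 4 without 8-week replicate 2, 24 h replicate 2 or 24 h replicate 3, so it is not particular to that library. Neither Ly6g nor Retnlg of the neutrophil list was listed. Of the 5 tested, edgeR called 5 higher at 8 weeks against before and DESeq2 called 3. Lymphocyte markers were 2.61 to 11.5, 8.72 to 16.0 and 13.3 to 76.1 FPKM, with 7 of 9 called higher at 8 weeks and 1 at 24 h. Capsule and fibroblast markers were 173 to 496, 699 to 1069 and 1069 to 1822 FPKM, with 7 of 7 called higher at 8 weeks and 6 at 24 h. Medulla markers were 1173 to 5152, 18.8 to 4095 and 5137 to 7615 FPKM. Of these 6 genes, edgeR called 0 in each comparison. DESeq2 called 0 at 8 weeks and 0 at 24 h against before, and 1 between 24 h and 8 weeks. Schwann cell markers were 2.89 to 10.5, 2.73 to 11.3 and 12.3 to 24.3 FPKM, with 2 of 3 called higher at 8 weeks and 0 at 24 h. Endothelial markers were 325 to 384, 138 to 761 and 243 to 353 FPKM. Of these 8 genes, edgeR called 0 at 8 weeks and 1 higher at 24 h, and DESeq2 called 2 and 3. Without the 2 libraries low in fat markers, 2 fell at 8 weeks and 6 rose at 24 h. The part of each of these cells in the members' levels was not tested.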

How the data were processed

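The tables hold, for each RefSeq transcript model and library, an expected count (a read number estimated per model, often fractional) and FPKM, deposited by the authors per the file headers. The submitters' processing notes name bcl2fastq 2.17, TopHat2 2.0.14 and the build mm10 (GRCm38). A further deposited table holds log2 values with their log2 ratio, p-value and q-value for 8 weeks against before, per the file headers. Models listed numbered 19655 for before and 8 weeks and 19191 for 24 h, with 18738 shared. Of 22 member models, 19 were shared.

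Expected counts of shared models were summed per gene, rounded and tested with edgeR 4.0.16 (R 4.3.3): TMM scaling, filterByExpr, the quasi-likelihood test over 13 libraries without a block, Benjamini-Hochberg adjustment over 14078 genes. SE is the absolute fold change over the root of F. FPKM was summed over all listed models of a gene. The share of all genes whose groups do not overlap is on FPKM of shared models. limma 3.58.1 on log2(FPKM + 0.1) and DESeq2 1.42.0 were alternatives. The scripts were tested on simulated data. The members and the 21 lists (168 genes) were chosen with earlier results of these data known. All members are named, with the 2 called genes of lowest p at 8 weeks in each list, at most 2 of each marker list, and the 3 genes most like Gpnmb and Trem2. Lipa, Tln1 and genes named only within a count were named after their values were seen. Paralogs, and models of 1 gene, share reads under this counting.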

Additional observations from a re-analysis of the deposited data

Results flagged for a closer look

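Groups of 4 or 5 libraries were searched for a library far from the others, over the level and leading-model share of each member (48 groups, in which chance flags about 1 in 20). A pair was found, both in 24 h replicate 4. Lgals3 was at 920.1 FPKM there, with the gap to the next library making up 0.944 of the group's range. Cd63 was at 436 FPKM there, with a gap of 0.92 of the range. The same library had the highest 24 h level of Gpnmb, Trem2, Spp1, Fabp5, Cd9 and Cd36 too, and Itgax and Clec7a lay within the range of the other 3 there. Its monocyte markers (191 FPKM, against 46.2 to 90.6 FPKM) and endothelial markers (761 FPKM, against 138 to 552 FPKM) were also the highest of 24 h, and its medulla markers were at 116 FPKM. Their part in the members' levels was not tested.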

How the results depend on the processing

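Across the members' log2 fold changes under 21 alternatives each, 210 of 210 values at 8 weeks against before and 209 of 210 at 24 h against before (all but Cd36 without 24 h replicate 4, at 0.04) kept their direction and moved by less than the SD between libraries, and 186 of 210 between 8 weeks and 24 h kept direction and call. Of the rest in that contrast, 18 lost the call, 5 gained it and 1 reversed: Clec7a, at -0.12, ran from -0.287 to 0.027 when 1 library was left out, above 0 without 8-week replicate 4. In fits of just the 2 groups compared, 973 genes passed between 8 weeks and 24 h, against 2923; Gpnmb passed there (1.74, edgeR adjusted p = 0.040) and Cd63 did not (0.73, edgeR adjusted p = 0.11). Leaving out 1 library at a time gave 1782 to 4300 genes called between 8 weeks and 24 h (1782, 1808 and 1941 without 8-week replicates 1, 2 and 4), 4153 to 6706 at 8 weeks against before and 1851 to 3998 at 24 h against before. The members called in these were 4 to 8, 10 to 10 and 8 to 9. Some of the 21 alternatives could hardly move a fold change. The fit without the low-count filter gave the same values. Leaving out a library of the group outside a comparison left the fold changes nearly as they were. The counts of unchanged values include these.

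Correlations of deviations were -0.125 to 0.277 for same-numbered libraries and -0.256 to 0.341 for libraries of different groups with different numbers. The labels do not say whether a number marks a shared animal, litter or batch, and these correlations cannot decide it. A replicate block gave 1312 genes called at 24 h against before (2708 without it) and 1661 between 8 weeks and 24 h, with 10, 7 and 4 members called at 8 weeks, at 24 h and between them. Without a scaling factor the genes called at 8 weeks were 2424 higher and 3054 lower, against 2882 and 2311, and between 8 weeks and 24 h 1181 and 2093, against 1428 and 1495. The median of all genes moved there from 0.03 to -0.10 and from -0.03 to -0.12. The low-count filter removed no gene. The lowest expected count of a member in any library was 102 (Trem2, before replicate 4).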
